A study of Trichoderma reesei with 18 samples.

Results

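In mycelium of the filamentous fungus Trichoderma reesei, 43 of 10879 measured genes shared a pattern: they were lowered by light in every strain and raised in darkness in both kinase mutants. QM6a, the wild type (WT), was compared with the deletion strains Δ80186 and Δ21168. In the series title the deleted genes are MAP kinase kinases, and the pathways named are HOG and pheromone. All strains grew for 96 h at 28 °C on cellulose in minimal medium, either in the dark or under constant light, and each of the 6 groups held 3 libraries. The labels do not say whether the 3 libraries came from separate cultures, nor how many clones of a mutant were used, so p-values measure the spread between these libraries, which may be technical.

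The members were chosen from these same values, as counts per 1000000 counts of the library (CPM), with group means over 3 libraries. A member had at least 5 CPM in at least 1 group. Its log2 ratio of light to darkness, with 1 CPM added to both, was -1 or lower in each of the 3 strains and above -3 in at least 1. Its log2 ratio to WT in darkness was at least 1 in both mutants. The light ratios in each strain and the dark ratios of the mutants to WT were therefore fixed by the choice and are given as description, without a test. Of 408 rows that met the light part of the rule, 85 were at least 2-fold above WT in darkness in Δ80186 and 83 in Δ21168, and the 43 members were those in both. Just inside the dark threshold lay TrG0742C, with a smaller of the 2 dark ratios of 1.02, and TrG0743W with 1.04. Just outside lay TrA1964C with 0.99 and TrC1543C with 0.98.

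MAP kinase cascades pass a signal from a sensor through 3 kinases in turn, and the MAP kinase kinase is the middle one. In fungi the HOG cascade is known for the response to osmotic stress, and the pheromone cascade for mating and cell fusion. Light is a signal to which many fungi respond with altered growth, sporulation and metabolism, and in T. reesei it also affects the genes for cellulose breakdown. The files do not pair the row identifiers with gene names: 0 of the 43 members, and 0 of all 10879 identifiers, were found among the 9116 genes of the RefSeq table used. What the members encode is therefore not given, no pathway list could be counted, and no sequences are shown.

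Library totals were 7945697 to 15672321 counts, with the 5 lowest totals in Δ21168. The numbers in the library descriptions form 2 series, and all 6 libraries of Δ21168 are in a series of their own. In comparisons of Δ21168 with another strain, strain and library series cannot be told apart, and no within-series value can be had. Replicate 1 of Δ21168 in darkness stood apart from its group in earlier results of these data. Over the members it showed no common shift. The median difference of its log2(CPM + 1) from the mean of replicates 2 and 3 was 0.001, and it held the highest value of 16 members and the lowest of 9. These measures cannot show whether single members deviated in both directions. Over all rows its Spearman correlations with replicates 2 and 3 were 0.982 and 0.979, against 0.989 between those.

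Levels summed over the members are given as a description. The choice of members set higher sums in darkness in both mutants than in WT, and lower sums in light than in darkness. It also favoured higher sums in the mutants than in WT in light. In WT the members summed to 468 to 525 CPM in darkness and 99.5 to 138 CPM in light. In Δ80186 the sums were 2169 to 2261 CPM in darkness and 306 to 343 CPM in light. In Δ21168 they were 1904 to 1934 CPM in darkness and 294 to 327 CPM in light. No library of any group overlapped another strain's range in darkness, and in light both mutants lay above WT while the ranges of the 2 mutants overlapped. Abundant members weigh most in a sum, so the higher dark sum of Δ80186 than of Δ21168 does not describe the typical member. The dark mean was higher in Δ80186 for 21 members and in Δ21168 for 22. The libraries are from bulk mycelium, so fewer cells of a type and less RNA per cell cannot be told apart. Median levels of single members were 7.6 CPM in WT, 24.4 CPM in Δ80186 and 32.6 CPM in Δ21168 in darkness, against 0.516, 2.56 and 2.05 CPM in light. In light 24 of the 43 members were below 1 CPM in WT, 18 in Δ80186 and 13 in Δ21168.

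**Figure D1:**
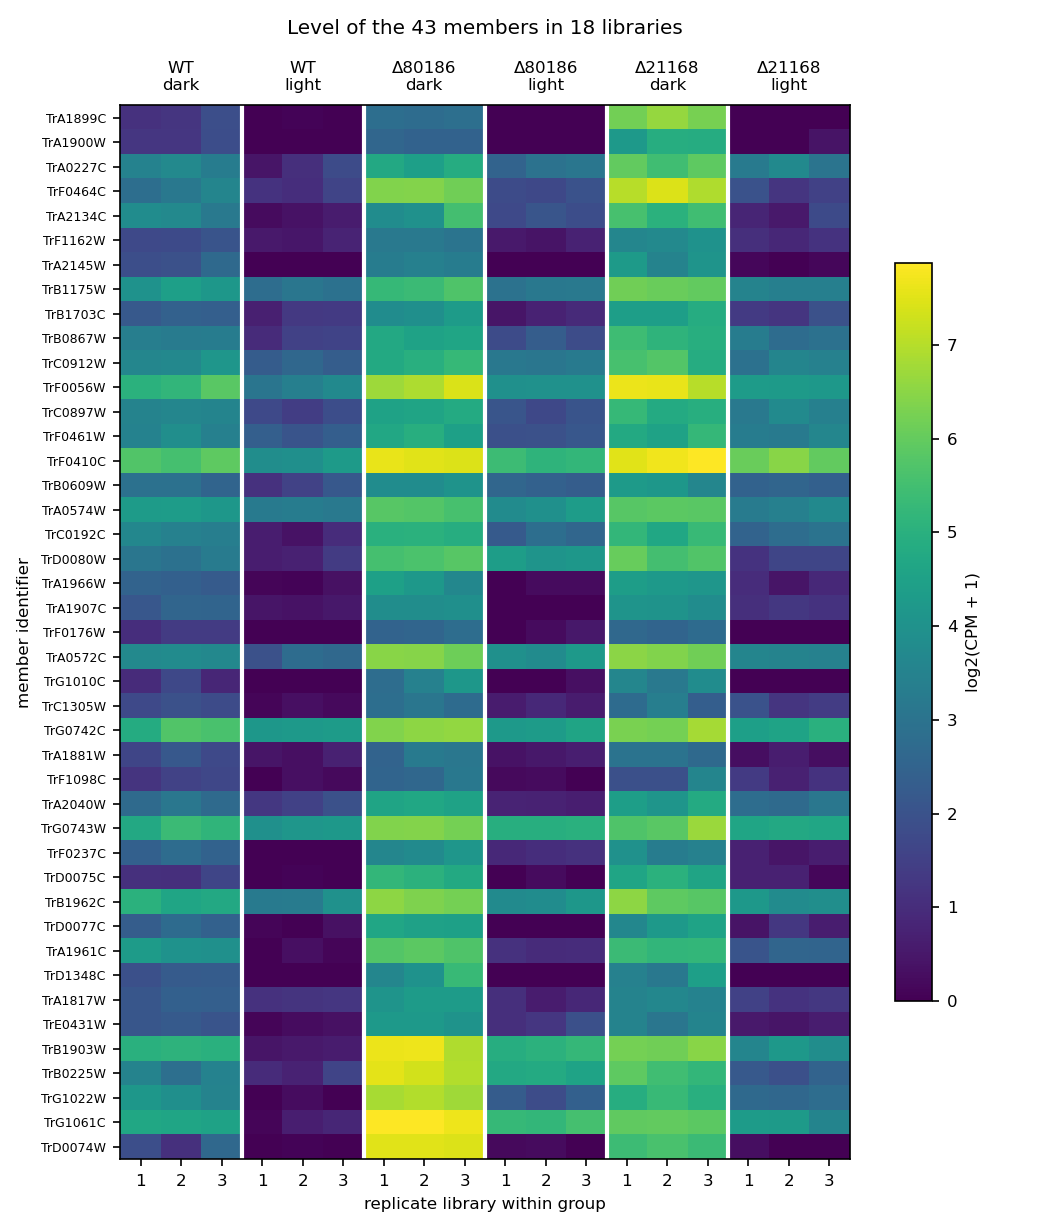
Level of each of the 43 members (rows) in each of the 18 libraries (columns, 3 per group), as log2(CPM + 1) on a colour scale; rows are ordered from those whose dark increase was larger in Δ21168 (top) to those where it was larger in Δ80186 (bottom). The dark columns of both mutants are the brightest, the light columns of WT the darkest, and TrF0410C and TrF0056W stand out with high values in the dark libraries of both mutants.

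CPM values are not corrected for gene length, so they compare samples and not genes. TrF0410C, the member with the highest mean CPM, had 52.7, 45.4 and 59.3 CPM in the 3 dark libraries of WT. It had 195, 181 and 176 CPM in darkness in Δ80186 and 181, 209 and 232 CPM in Δ21168. In light it had 13.5 to 18.6 CPM in WT, 33.8 to 41.1 CPM in Δ80186 and 62.6 to 87.6 CPM in Δ21168. The 3 strains did not overlap in light, and Δ21168 in light lay above every dark library of WT. TrF0056W, next by mean CPM, had 31.3, 35.2 and 56.6 CPM in darkness in WT, 105, 118 and 171 CPM in Δ80186 and 197, 194 and 131 CPM in Δ21168. Here the 2 mutants overlapped in darkness.

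TrG1061C and TrB1903W were also among the 6 members with the highest mean CPM and took a different course. TrG1061C had 24.7, 23.8 and 22.1 CPM in darkness in WT, 233, 230.3 and 203 CPM in Δ80186, and 60.2, 62.2 and 58.2 CPM in Δ21168. TrB1903W had 31.2, 33.3 and 31.1 CPM in WT, 197, 203 and 121 CPM in Δ80186, and 73.2, 70.7 and 87.7 CPM in Δ21168. For both, all dark libraries of Δ80186 lay above those of Δ21168. In light WT was nearly without reads of either, at 0.0889 to 0.794 CPM for TrG1061C and 0.356 to 0.505 CPM for TrB1903W. The other members of this group were TrG0742C and TrG0743W, both close to the dark threshold: TrG0742C averaged 42.8 ± 13.1 CPM (SD, n = 3) in darkness in WT, 90.01 ± 7.14 CPM in Δ80186 and 87.7 ± 20.6 CPM in Δ21168.

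In darkness every member lay above WT in all 3 libraries of both mutants, which the choice of members largely sets. Of all 9079 genes tested, 25.9% were above WT in this way in Δ80186 and 24% in Δ21168. The log2(CPM + 1) ratio to WT ranged from 1.04 to 5.47 in Δ80186, with a median of 1.49, and from 1.02 to 4.92 in Δ21168, with a median of 1.63. Since 1 CPM is added to both sides, these ratios understate the change of low genes. At least 4-fold were 13 members in Δ80186 and 12 in Δ21168. The largest increases common to both mutants were those of TrD0075C (3.75 and 3.49 in Δ80186 and Δ21168), TrD0074W (5.47 and 3.43), TrF0464C (3.09 and 3.92) and TrA0572C (2.63 and 2.63). TrF0464C had 6.13, 7.97 and 11 CPM in WT, 82.6, 83.2 and 70.1 CPM in Δ80186 and 128, 175 and 121 CPM in Δ21168. TrA0572C had 12, 12.8 and 11.9 CPM in WT, 87.6, 85.2 and 69.7 CPM in Δ80186 and 88.8, 81.8 and 71.1 CPM in Δ21168. For TrA0572C the ranges of the 2 mutants overlapped almost fully.

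In a few members 1 library stood well above the others of its group. TrA2134C had 13.4, 14.9 and 44.9 CPM in darkness in Δ80186, against 13.1, 12 and 8.17 CPM in WT, so replicate 3 lay far above the other two. It no longer met the rule when any 1 of 4 libraries was left out, which were WT dark replicate 3 and each of the 3 dark libraries of Δ80186. Without Δ80186 dark replicate 1 or 2 its dark increase grew. It was then lost because its light ratio in Δ80186 also fell below -3, as it was in WT (-3.18) and Δ21168 (-4.22). TrD1348C had 11.2, 15.1 and 38.2 CPM in Δ80186 and 10.1, 7.93 and 20.9 CPM in Δ21168, with replicate 3 highest in both mutants, against 2.79 to 3.91 CPM in WT, and it met the rule whichever of the 18 libraries was left out. TrF1098C had 2.78, 2.77 and 11 CPM in darkness in Δ21168 and was lost from the set without replicate 3. In all, 31 of the 43 members met the rule whichever of the 18 libraries was left out, and 12 did not. TrA1881W and TrG0743W were the most sensitive, each being lost when any 1 of 5 libraries was left out.

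The question of whether a member was raised more in one mutant than in the other was tested directly, as the rule compares each mutant with WT only. Of the 43 members, 8 were higher in Δ80186 than in Δ21168 in darkness, 8 were lower, and 27 passed the threshold in neither direction (edgeR's quasi-likelihood test, Benjamini-Hochberg adjusted p under 0.05 over 9079 genes). Of all genes tested, 23.1% were higher and 21% lower, so the members' shares lay near or below the background. The median log2 fold change of the members was -0.02, against 0.01 over all genes. The dark levels entered the rule through both ratios to WT, so a gene less than 2-fold above WT in either mutant could not be a member.

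Among the members higher in Δ80186, TrD0074W showed the largest difference. It had 182, 182 and 175 CPM in darkness in Δ80186 and 40.8, 48 and 39.9 CPM in Δ21168, with 2.72, 1.15 and 5.35 CPM in WT (Δ80186 over Δ21168, log2 fold change 2.06 ± 0.26 SE, adjusted p = 1.5e-05 by edgeR). TrG1061C followed with 1.87 ± 0.17 (adjusted p = 2.6e-07 by edgeR), and its values are given above. TrG1022W, with 114, 123 and 106 CPM in Δ80186 and 29.1, 38.3 and 30.4 CPM in Δ21168, and TrB0225W, with 188, 159 and 125 against 59.2, 42.5 and 35.9 CPM, differed by similar amounts. The smallest called differences in this direction were those of TrA1817W (0.73 ± 0.18) and TrA1961C (0.55 ± 0.15).

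In the other direction TrA1899C had 6.11, 5.92 and 6.38 CPM in darkness in Δ80186 and 71.7, 96.8 and 75.1 CPM in Δ21168, from 1.18, 1.3 and 2.68 CPM in WT (log2 fold change -3.73 ± 0.22 SE, adjusted p = 1.9e-08 by edgeR). TrA1900W, the next identifier in number, had 5.11, 4.57 and 4.59 CPM in Δ80186 and 18.1, 28.9 and 28.2 CPM in Δ21168 (-2.41 ± 0.31 SE, adjusted p = 3.7e-05 by edgeR). Both stood out against the other members lower in Δ80186, of which the called differences of TrB1175W (-0.63 ± 0.13) and TrB0867W (-0.57 ± 0.18) were the smallest. The call of TrB0867W was lost without Δ80186 dark replicate 2 (log2 fold change -0.51, adjusted p = 0.066 by edgeR) and without Δ21168 dark replicate 1 (-0.42, adjusted p = 0.073), with adjusted p-values of 0.0024 to 0.073 over 12 alternatives.

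**Figure D2:**
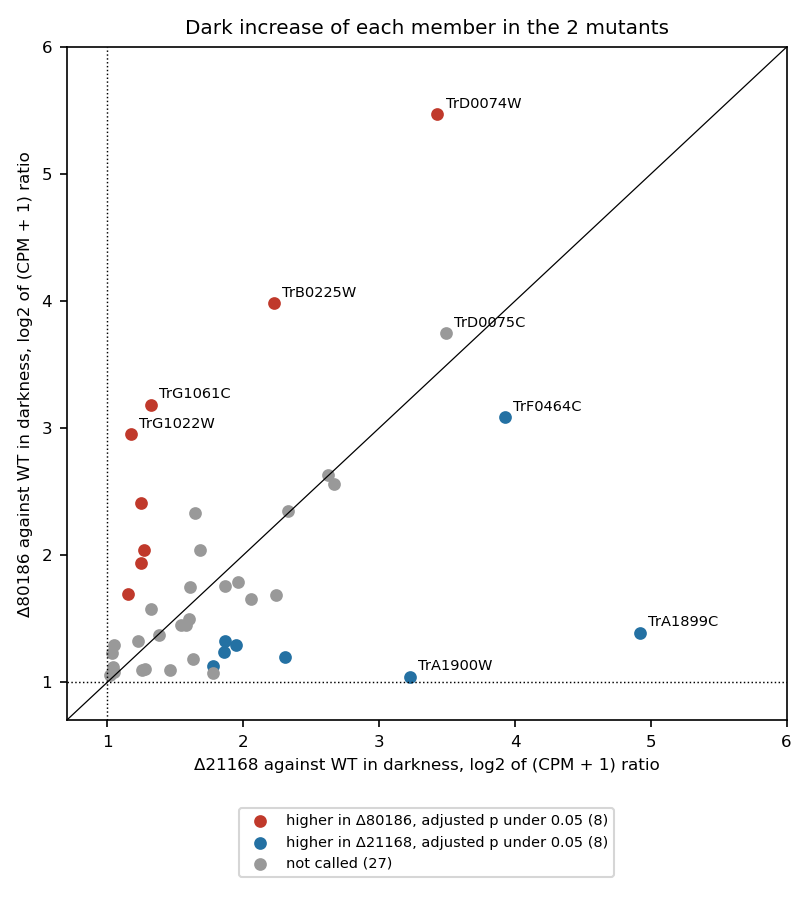
Increase of each of the 43 members over WT in darkness in Δ21168 (horizontal) and in Δ80186 (vertical), as log2 of the ratio of group mean CPM + 1; dotted lines mark the rule's threshold of 1 and the solid line equal increases. Colours give the direct test between the 2 mutants in darkness: 8 members were higher in Δ80186, 8 in Δ21168, and TrD0074W and TrA1899C lie farthest from the line of equal increases on either side.

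Light lowered every member in each strain by the rule, and the 3 light libraries lay below the 3 dark ones for all 43 members in WT, Δ80186 and Δ21168. Of all genes tested, 32.1%, 34.7% and 24.8% did so in the 3 strains. The light to dark ratio had a median of -1.71 on the log2 scale in WT, -2.66 in Δ80186 and -2.65 in Δ21168. It was more negative than in WT for 37 members in Δ80186 and for 35 in Δ21168. As the rule asks for higher dark levels in the mutants, this is a description. The added 1 CPM also shrinks these ratios most at low levels, and light levels were lowest in WT (median 0.516 CPM). The medians and counts depend on it, so they do not show how much stronger the response was in the mutants. In the edgeR fit, which does not add 1 CPM, the medians of the 3 strains lay much closer together. Fewer members were then more negative in each mutant than in WT. TrG1022W had -7.37 in WT and -4.92 in Δ80186 in that fit, against -3.81 and -4.64 with 1 CPM added. TrD0074W stayed more negative in Δ80186 (-10.5) than in WT (-6.48) in that fit. Its light levels there rest on 4 reads in Δ80186 and 1 in WT, and its dark increase was part of the choice. The strongest mean response was that of TrD0074W, which went from 182, 182 and 175 CPM to 0.148, 0.172 and 0 CPM in Δ80186, and from 40.8, 48 and 39.9 CPM to 0.22, 0 and 0 CPM in Δ21168. The weakest was that of TrG0743W, with ratios of -1.02 in WT, -1.40 in Δ80186 and -1.48 in Δ21168.

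Levels in light were compared between each mutant and WT. This comparison asks whether the members were also above WT in light. It is not independent of the choice of members: the light ratio of a mutant to WT equals the dark ratio, chosen to be at least 1, plus the difference of their light to dark ratios, which were also limited by the rule. The choice favours higher values in the mutants without fixing the direction, so the counts and medians that follow support nothing beyond the single genes. In Δ80186 21 members were higher than WT in light and 2 lower, and 20 passed the threshold in neither direction. Of all genes, 28% were higher and 30.7% lower. In Δ21168 24 members were higher and 0 lower by edgeR, with 19 called in neither direction and 0 lower at an unadjusted p under 0.05. DESeq2 called 27 higher, including these 24, and 0 lower. There 19.5% of all genes were higher and 20.5% lower. The share of higher genes among all genes called in Δ21168 was 48.8% with TMM factors and 62.6% with library totals. The called members were higher under both scalings, but this comparison could not have turned them. The median log2 fold change over all genes moved only from 0.02 to 0.10, and the smallest called change of a member was 0.47. The median log2 fold change over all 43 members was 0.90 in Δ80186 and 1.22 in Δ21168, against -0.03 and 0.02 over all genes. Without the members that had at most 3 reads in both groups, and with those at 0 reads in 1 group set to their bound, the medians were 0.92 over 37 members and 1.5 over 36. Both comparisons share the WT light libraries.

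The 365 other rows that met the light part of the rule give a frame for these counts. In light 44.1% of them were higher and 12.3% lower in Δ80186 than in WT, and 39.5% were higher and 15.6% lower in Δ21168. The corresponding shares of the members were 48.8% and 4.65% in Δ80186 and 55.8% and 0% in Δ21168. The difference between members and other light-lowered rows was not tested.

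Among called members with at least 5 CPM in the higher group, TrG1061C differed most from WT in light in Δ80186. It had 0.0889, 0.574 and 0.794 CPM in WT, 37.9, 36 and 45.5 CPM in Δ80186 (log2 fold change 6.29 ± 0.28 SE, adjusted p = 3.1e-11 by edgeR) and 18.9, 18.4 and 10.8 CPM in Δ21168. TrB1903W had 0.356, 0.447 and 0.505 CPM in WT and 28.7, 32.3 and 36.6 CPM in Δ80186 (6.21 ± 0.29 SE, adjusted p = 3.6e-11 by edgeR). In Δ21168 it had 11, 17.2 and 13.4 CPM (4.87 ± 0.31 SE, adjusted p = 4.2e-09 by edgeR). For both genes the light libraries of each mutant thus lay far above WT without overlap, and light lowered them less on the log2 scale in the mutants than in WT: for TrG1061C the light to dark ratio was -4.05 in WT, -2.45 in Δ80186 and -1.84 in Δ21168.

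TrG1022W was also higher in light in both mutants. It had 3 reads in the 3 WT light libraries together, all in replicate 2, and 5.51, 5.23 and 6.08 CPM in Δ21168, a pooled ratio of 75.9 (95% exact binomial counting interval 25.5 to 372). The ratio was 50.1 without WT light replicate 3, and at least 46.7 without WT light replicate 2. In Δ80186 its ratio to WT was 49.5 (16.6 to 243), which was 32.7 without WT light replicate 3 and at least 30.5 without WT light replicate 2. TrF0237C had 0 reads in WT in light, 38 reads in Δ80186 and 15 in Δ21168, which makes it at least 13.9-fold and at least 7.07-fold higher (floor of 3 reads over the group). The bounds were 8.58 and 4.36 without WT light replicate 2, and 9.2 and 4.67 without WT light replicate 3. Intervals and floors cover counting error only.

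Smaller differences in light were called as well. In Δ80186 the smallest under the rule for named genes were TrA0574W, with 8.36, 8.81 and 8.15 CPM in WT and 13, 14.4 and 19.5 CPM in the mutant (0.92 ± 0.14 SE), and TrC0912W, with 3.91 to 5.17 against 7.57 to 8.3 CPM (0.89 ± 0.26 SE). In Δ21168 they were TrF0056W (0.83 ± 0.27 SE) and TrB1175W (0.47 ± 0.15 SE), both without overlap of libraries. The call of TrF0056W was lost without WT light replicate 1 (log2 fold change 0.67, adjusted p = 0.1 by edgeR) or 2 (0.79, adjusted p = 0.081) and without Δ21168 light replicate 1 (0.81, adjusted p = 0.064) or 2 (0.81, adjusted p = 0.065), with a range of 0.0018 to 0.1 over 13 alternatives. That of TrB1175W was lost without WT light replicate 1 (0.39, adjusted p = 0.091 by edgeR) or 3 (0.44, adjusted p = 0.069) and without Δ21168 light replicate 1 (0.43, adjusted p = 0.068), with a range of 0.0071 to 0.091.

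The 2 members lower than WT in light in Δ80186 were TrA1907C and TrA2040W, named because their number was small. TrA1907C had 4, 5 and 6 reads in the WT light libraries and 0 in each of the Δ80186 light libraries, at least 4.55-fold lower (2.89 without Δ80186 light replicate 1). In Δ21168 it had 10, 15 and 11 reads, or 1.1 to 1.4 CPM against 0.319 to 0.433 CPM in WT. TrA2040W had 1.42, 1.85 and 2.89 CPM in WT, 0.739, 0.688 and 0.587 CPM in Δ80186 (-1.57 ± 0.34 SE, adjusted p = 0.00072 by edgeR) and 6.06, 5.61 and 7.74 CPM in Δ21168 (1.55 ± 0.25 SE, adjusted p = 0.00011 by edgeR). In darkness both genes were above WT in all libraries of both mutants, TrA2040W with 23.1, 25 and 22.4 CPM in Δ80186 and 20.1, 16.2 and 27.3 CPM in Δ21168 against 5.64, 7.66 and 5.57 CPM in WT.

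**Figure D3:**
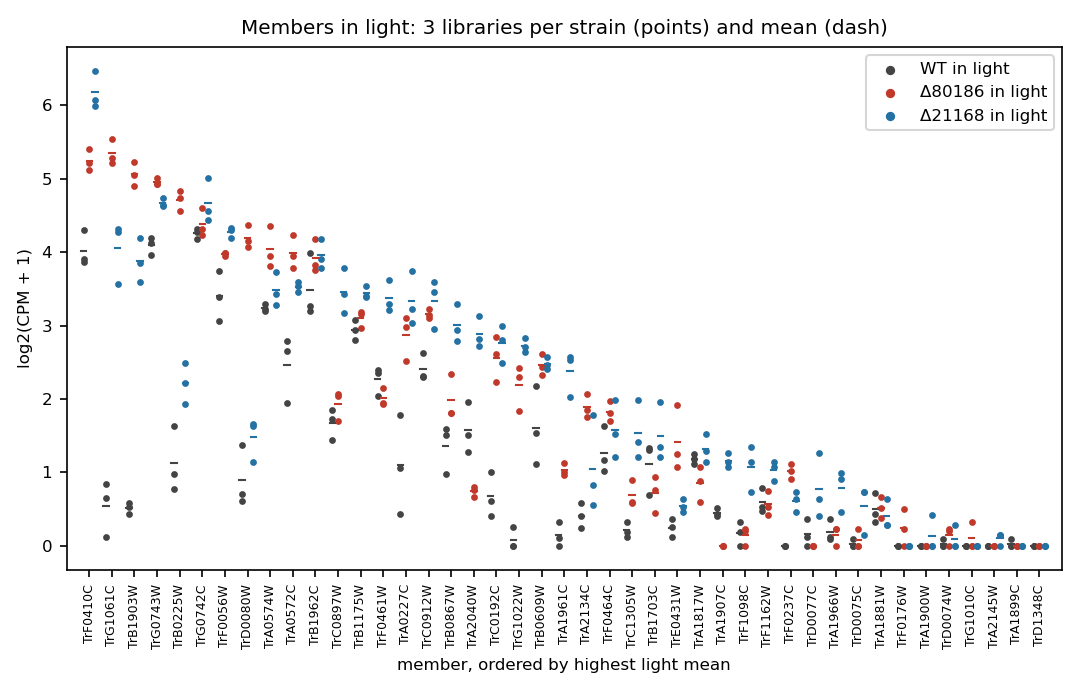
Levels of the 43 members in light as log2(CPM + 1), with the 3 libraries of each strain as points and their mean as a dash; members are ordered by the highest of their 3 strain means. The points of both mutants lie above WT for TrF0410C, TrG1061C, TrB1903W and TrB0225W, with Δ21168 highest for the first and Δ80186 for the other three, and at the right end several members are at or near 0 in all strains.

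Compared with each other in light, the mutants differed in 23 of 43 members: 9 were higher and 14 lower in Δ80186 than in Δ21168, and 20 passed in neither direction. Of all genes, 30.5% were higher and 32% lower. The median log2 fold change was -0.18 over the members and -0.03 over all genes, and on library totals, without TMM factors, these medians were -0.30 and -0.15. Among called members whose libraries did not overlap and whose higher group averaged at least 5 CPM, the largest difference in favour of Δ80186 was that of TrD0080W, with 19.7, 15.7 and 16.8 CPM in Δ80186 and 1.21, 2.15 and 2.1 CPM in Δ21168 (log2 fold change 3.36 ± 0.26 SE, adjusted p = 4.2e-09 by edgeR), while WT had 0.533, 0.638 and 1.59 CPM. In darkness the 2 mutants overlapped for this gene, at 45.4, 48.6 and 55.5 against 64.5, 44.4 and 52.2 CPM. TrB0225W had 25.6, 27.4 and 22.5 CPM in Δ80186 and 3.63, 2.8 and 4.64 CPM in Δ21168 (2.90 ± 0.29 SE, adjusted p = 5e-07 by edgeR), and it differed in the same direction in darkness. The smallest called differences of this sign were TrA0574W (0.73 ± 0.14) and TrA0572C (0.63 ± 0.17).

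Of the 14 members lower in Δ80186 than in Δ21168 in light, those with the largest differences at 5 CPM or more in the higher group were TrA2040W (-3.12 ± 0.31 SE, adjusted p = 1.1e-07 by edgeR), whose values are given above, and TrC0897W. Members with few reads differed as much or more. TrA1907C had 0 reads in Δ80186 and 36 in Δ21168, and TrD0077C had 0 and 23 reads, at least 9.86-fold lower in Δ80186 (5.46 without Δ21168 light replicate 2 and 6.26 without Δ80186 light replicate 1). TrD0075C had 2 and 14 reads, with overlapping libraries, and TrF1098C had 4 and 32 reads. TrC0897W had 3.18, 2.24 and 3.1 CPM in Δ80186 and 8.04, 12.7 and 9.73 CPM in Δ21168 (-1.72 ± 0.21 SE, adjusted p = 1.6e-06 by edgeR), while its WT values of 2.31, 1.72 and 2.6 CPM overlapped those of Δ80186. TrB0867W (-1.11 ± 0.23) and TrF0410C (-0.84 ± 0.15) were the smallest of the called differences with at least 5 CPM in the higher group. For TrF0410C the 3 strains were thus ordered WT, Δ80186 and Δ21168 in light, each pair without overlap, whereas the 2 mutants overlapped in darkness.

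Most identifiers hold a letter from A to G, then a number, and end in W or C. The files do not state what these stand for, so the numbers are used here only as an order of rows. Members were found under every letter: 13 of 2149 rows under A, 7 of 1977 under B, 4 of 1580 under C, 5 of 1443 under D, 1 of 1307 under E, 8 of 1211 under F and 5 of 1209 under G. The ending W was held by 24 members and C by 19, against 49.3% of all rows with W. Another member lay at the next number for 6 members, and within 2 numbers for 9, or 20.9% of the members, while 1.38% of the other rows lay within 2 numbers of a member. The last 430 rows under A, a stretch singled out after the values were seen, held 10 members (23.3%) and 3.95% of all rows.

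The longest run of members with a gap of at most 1 number was TrD0074W, TrD0075C and TrD0077C, and TrD0080W lay close by. TrD0075C had 35.9, 32.2 and 26.7 CPM in darkness in Δ80186 and 23.7, 31.8 and 23.4 CPM in Δ21168, against 1.11, 1.07 and 2.1 CPM in WT. TrD0077C had 24.4, 21.7 and 21.1 CPM in Δ80186 and 11.5, 17.7 and 22.6 CPM in Δ21168, against 4.04, 5.67 and 4.41 CPM in WT. In light all 3 had at most 1.4 CPM in any library. The rows before them showed the same course without being members. TrD0072C averaged 0.792 CPM in darkness in WT, 63.6 CPM in Δ80186 and 15.8 CPM in Δ21168, and TrD0073C averaged 1.04, 78.4 and 15.1 CPM. Their light ratios in WT were -0.62 and -0.999, short of the threshold of -1, at WT levels of about the 1 CPM that is added. TrD0076C, within the run, averaged 1.51, 2.43 and 3.75 CPM in darkness in the 3 strains, and TrD0078C and TrD0079W stayed below 5 CPM in every group. In TrD0076C the dark libraries of WT overlapped those of both mutants. In TrD0079W the 3 dark libraries of Δ21168 lay above WT and those of Δ80186 below.

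**Figure D4:**
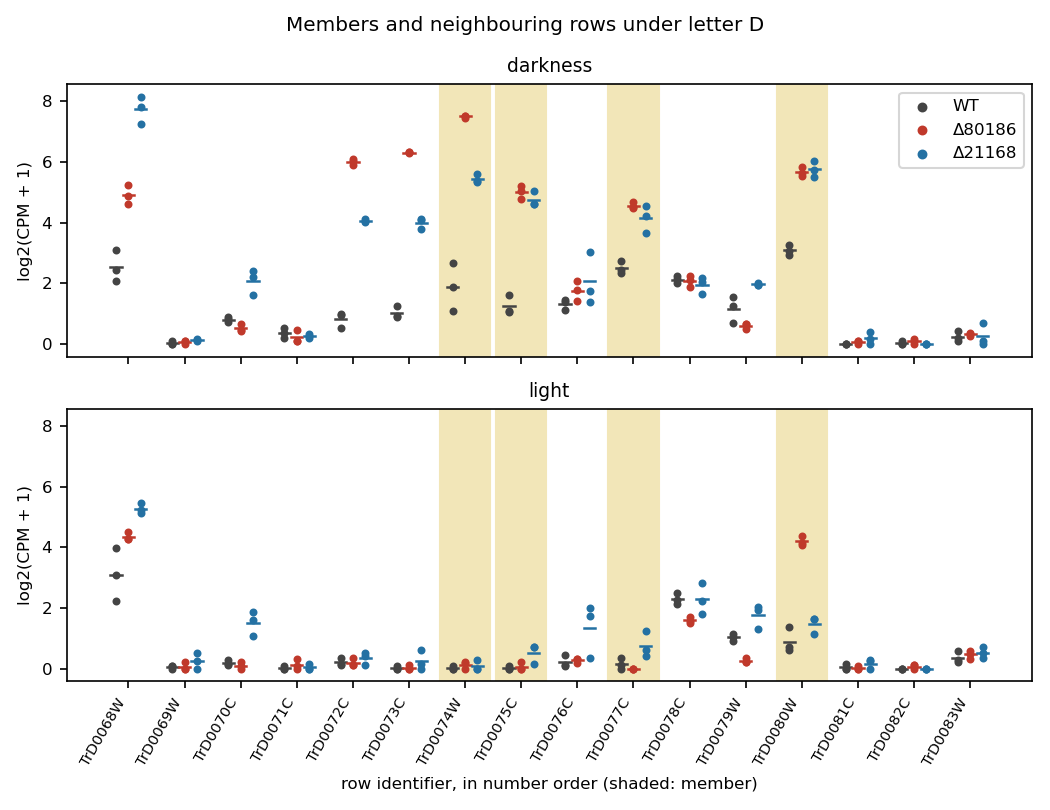
Levels of the rows TrD0068W to TrD0083W as log2(CPM + 1), in darkness (upper panel) and in light (lower panel), with 3 libraries per strain as points and their mean as a dash; members are shaded. TrD0072C to TrD0075C form a block in which both mutants lie above WT in darkness and all strains lie near 0 in light, while TrD0080W keeps a higher level in light in Δ80186.

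Other runs were pairs. TrA0572C and TrA0574W enclosed TrA0573W, which averaged 13.2 CPM in WT, 37.6 CPM in Δ80186 and 33.7 CPM in Δ21168 in darkness and missed the rule by a WT light ratio of -0.996. TrA0571C, before them, averaged 41.3 CPM in WT and 62.4 and 64.5 CPM in the 2 mutants. TrA0574W had 18.9, 19.2 and 17.1 CPM in WT, 55.8, 53.1 and 46.7 CPM in Δ80186 and 55.5, 57.9 and 57.1 CPM in Δ21168. TrA1899C and TrA1900W, the pair with the larger dark increase in Δ21168, were followed by TrA1901C, which was lower in Δ21168 than in WT in darkness (179 against 466 CPM) and so did not share their course. TrG0742C and TrG0743W formed the last pair, and the rows on either side of it, TrG0741W and TrG0744W, had dark ratios of -0.33 to 0.03 in the mutants. TrG0744W averaged at most 0.072 CPM in darkness in any strain, so with 1 CPM added its ratios could not show a change.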

How the data were processed

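RNA was extracted from mycelium, depleted of ribosomal RNA and made into libraries with a strand-specific kit, per the labels' protocols. The authors deposited whole-number counts per gene and library, not normalised. Reads were aligned with HISAT2 2.2.1, per the submitters' processing notes. The name of the deposited table gives featureCounts as the counting tool. Not given in the sources used here: its version, its strand setting, its treatment of reads with several alignments and the genome build. Therefore reads of overlapping, antisense or near-identical genes could not be told apart. Columns were matched to samples by their descriptions, 0 columns were left out, and groups came from the sample titles.

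The members, gene order and tests were chosen with earlier results of these data known. Levels are CPM on library totals, given as mean ± SD of 3 libraries. Tests used edgeR 4.0.16 (R 4.3.3): filterByExpr by group (minimum count 10, total 15), which kept 9079 genes and all 43 members, TMM factors, robust dispersions and quasi-likelihood F tests. A single model held the 6 group means of all 18 libraries, leaving 12 residual degrees of freedom. Genes with a Benjamini-Hochberg adjusted p under 0.05 (over 9079 genes) are called. A standard error (SE) is the size of the log2 fold change over the root of F, and for few reads they can understate counting error. The test was checked on simulated counts. Named members were the 6 with the highest mean CPM, the 4 with the largest smaller dark ratio, up to 2 with the largest and 2 with the smallest called change per test and direction (at least 5 CPM in the higher group, no overlap), those at the dark threshold, those in up to 3 runs of identifiers, and the strongest and weakest light responses. A further few, such as TrG1022W, TrB0225W, TrF0237C, TrA2134C, TrD1348C, TrF1098C, TrA1881W and TrA1907C, were chosen after their values were seen. Alternatives were DESeq2 1.42.0, library totals, RLE factors, no filter, a fit of the groups compared, a replicate block and each library left out. No pair of replicate libraries agreed within sampling noise (chi-square per degree of freedom 4.37 to 85.5).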

Additional observations from a re-analysis of the deposited data

Results flagged for a closer look

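TrA1907C and TrA2040W changed in opposite directions between darkness and light in Δ80186. In darkness all 3 mutant libraries lay above the 3 WT libraries, and in light all 3 lay below, by at least 4.55-fold for TrA1907C and by a log2 fold change of -1.57 for TrA2040W. The difference between the light conditions was not tested, as the dark ratio was used to choose the members. In light the 2 mutants also moved to opposite sides of WT for both genes. The direct comparison of the mutants in light put TrA1907C at least 15.4-fold lower in Δ80186 than in Δ21168 (9.8 without Δ80186 light replicate 1) and TrA2040W lower by a log2 fold change of -3.12. TrA1907C had at most 15 reads per light library.

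TrA1961C was higher in Δ80186 than in Δ21168 in darkness (log2 fold change 0.55) and lower in light (-1.90), without overlap of libraries in either condition. Light levels were 0 to 0.255 CPM in WT, 0.946 to 1.18 CPM in Δ80186 and 3.08 to 4.95 CPM in Δ21168. The difference between the light conditions was not tested.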

How the results depend on the processing

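The number of members was 14 with a dark threshold of 1.5 and 41 to 58 with 1 library left out, the highest without WT dark replicate 2. It was 54 with 0.5 CPM added in place of 1 and 32 with 2 CPM, sharing 40 and 27 with the 43. It was 39 and 43 with a minimum of 10 and 2 CPM, and 44 with TMM-scaled library sizes. In fits of only the groups compared, 1 member was called lower in light in Δ80186 than in WT, and 9 were lower in Δ80186 than in Δ21168 in light. In these counts and alternatives, every other count of called members kept within 1.5 times its value. With 1 library left out, members called higher than WT in light ranged from 18 to 23 in Δ80186 and from 19 to 25 in Δ21168, and those called lower from 2 to 3 and from 0 to 0. Between the mutants in darkness 8 to 10 were then higher and 6 to 12 lower, and in light 7 to 9 higher and 12 to 14 lower. Of 304 values of named members under alternatives, 295 kept their call, 9 lost it and 0 changed direction.

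The replicate block gave 20 members higher and 3 lower in Δ80186 than in WT in light, and 24 and 0 in Δ21168. Between the mutants it gave 8 higher and 8 lower in darkness and 9 and 14 in light. The labels do not say what a replicate number marks, and deviations of same-numbered libraries correlated at -0.363 to 0.134 in the groups compared, so the libraries were not treated as paired. Over all pairs of groups the range was -0.386 to 0.596. The highest value was between replicate 1 of WT and of Δ21168 in darkness, groups that the rule compares and that were not tested. Depth limits the light comparisons: 6 members in Δ80186 and 7 in Δ21168 had at most 3 reads in the mutant and in WT.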

Other observations

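Near the run of members under letter D, TrD0068W was above WT in darkness in both mutants but was not lowered by light in WT. It averaged 5.1 ± 2.24 CPM (SD, n = 3) in darkness in WT, 29.6 ± 6.57 CPM in Δ80186 and 219 ± 64.9 CPM in Δ21168. In light it averaged 8.73 ± 5.7 CPM in WT, 19.5 ± 1.87 CPM in Δ80186 and 37.9 ± 4.81 CPM in Δ21168. It was chosen after its values were seen and was not tested.

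The spread between libraries was wider for the members than for all rows of at least 5 CPM. The median coefficient of variation was 15.4% over 24 members and 8.04% over all such rows in darkness in WT, 10.6% over 42 members and 5.84% in Δ80186, and 19.6% over 43 members and 12% in Δ21168. This difference was not tested. The rows were not matched to the members on level, and spread from counting is wider at low levels.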
